A study of Mus musculus with 6 samples.

Results

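Macrophages and other myeloid cells of the mouse testis were followed through 33 genes, chosen by symbol as markers or effectors of that lineage. Of these, 32 had a probe set annotated to that gene alone, 28 were bright enough to be tested, and Lilrb4a, an inhibitory receptor of myeloid cells, had only a probe set shared with another gene and is given no value. The tested members stood among 10916 tested genes of whole-testis RNA. The arrays came from mice aged 12 weeks, 3 labelled SCARKO-jsd and 3 labelled jsd. All 6 mice carried jsd (juvenile spermatogonial depletion), a mutation of Utp14b that stops germ cells of adult tubules from developing past spermatogonia, and no mice without it are among the groups. The SCARKO-jsd mice also had a gene knocked out conditionally in their Sertoli cells, which nurse the germ cells inside the tubule; the sources used here do not name the promoter behind it. The groups were set against each other to see how this added knockout alters expression in the jsd testis. Every difference below is SCARKO-jsd minus jsd on a log2 scale, so 1 is a 2-fold change.

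Macrophages are the most numerous immune cells of the testis. In mice, interstitial macrophages lie among the Leydig cells, carry the receptor of colony-stimulating factor 1 (Csf1r) and the mannose receptor (Mrc1), and show little MHC class II, whereas peritubular macrophages lie on the tubule wall and carry MHC class II. The lineage depends on the growth factor Csf1 and on the transcription factor PU.1, encoded by Spi1, which binds purine-rich DNA with the core GAGGAA in the control regions of many myeloid genes. Activating Fc receptors for antibodies signal through the ITAM adaptor encoded by Fcer1g, and Trem2 through that encoded by Tyrobp.

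The member promoters are shown because Spi1, which encodes the factor that reads this core, is itself a member and is measured below. RefSeq promoter sequences (GRCm38.p6, 250 bases before to 50 after the annotated start) were matched by symbol for 24 of the 33 members. The core GAGGAA, searched as GAGGAA or its reverse complement TTCCTC, was present in 15 of the 24 (62.5%), against 31.3% of 27025 genes with such a sequence. A TATA box (TATAAA or TTTATA) was present in 3 of the 24 (12.5%), against 15.7% of all genes, and a GC box (GGGCGG or CCGCCC) in 7 (29.2%), against 38.2%. These are matches of letters and not shown sites. The 120 bases before the start of 6 members, picked by hand, are printed in the direction of the gene, with the core in capitals. Of these, 5 hold it, and Fcer1g, the member with the smallest p, does not. A link between the core and the differences was not tested.
C1qb, chr4:136886201-136886320, minus strand: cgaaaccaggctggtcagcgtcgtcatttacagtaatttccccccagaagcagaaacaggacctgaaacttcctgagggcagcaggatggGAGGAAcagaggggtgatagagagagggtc
Laptm5, chr4:130913196-130913315, plus strand: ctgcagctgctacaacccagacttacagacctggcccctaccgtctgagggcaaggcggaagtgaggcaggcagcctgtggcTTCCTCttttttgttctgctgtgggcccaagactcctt
Cd53, chr3:106790150-106790269, minus strand: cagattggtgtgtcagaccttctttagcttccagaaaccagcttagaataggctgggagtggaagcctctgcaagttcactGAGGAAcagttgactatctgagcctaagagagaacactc
Fcgr1, chr3:96293970-96294089, minus strand: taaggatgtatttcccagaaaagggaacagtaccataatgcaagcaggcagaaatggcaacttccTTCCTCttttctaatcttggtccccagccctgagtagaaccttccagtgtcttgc
Trem2, chr17:48346281-48346400, plus strand: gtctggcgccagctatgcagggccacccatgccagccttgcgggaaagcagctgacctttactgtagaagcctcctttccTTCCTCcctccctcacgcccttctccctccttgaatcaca
Fcer1g, chr1:171234350-171234469, minus strand: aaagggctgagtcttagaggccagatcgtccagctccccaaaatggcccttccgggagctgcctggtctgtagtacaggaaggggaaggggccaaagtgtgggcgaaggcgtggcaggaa

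The groups matched their labels by Rhox5, a homeobox gene of Sertoli cells, which was far lower in each SCARKO-jsd array (log2 difference -4.35 ± 0.22 SE). The array SCARKO-jsd 2 stood apart: the 3' minus 5' gap of the beta-actin control probe sets, a sign of RNA quality, was 1.66 log2 units there, against 0.70 to 0.98 on the other 5 arrays, and its correlation with any other array over all probe sets was at most 0.975. The log2 difference without it is therefore given beside each member whose sign it turned or whose difference it moved by over 1.5 times; none of these members passed either way. Cell type markers of the testis were measured together with the members. The markers of Leydig cells (6 tested) and peritubular myoid cells (6) held 0 called genes by limma, and 0 at an unadjusted p under 0.05. Over all genes 3.57% were called and 18.0% had such an unadjusted p, and lists of 6 are too small to tell 0 from these shares. Of 5 tested endothelial markers Kdr fell (-0.79) and the other 4 lay above 0 without passing (0.18 to 0.53). SCARKO-jsd 2 was the highest array for 4 of the 5 (80%), against 48.7% of all genes. The mean of the 5 was 8.30 there, against 7.69 on SCARKO-jsd 1, 7.82 on SCARKO-jsd 3 and 7.70 to 8.02 on jsd arrays. Of 9 Sertoli cell markers Rhox5 and Wt1 (-0.48) fell, while Amh and Inha, both at 0.33, had an unadjusted p under 0.05, and Inha passed without SCARKO-jsd 2 (0.35, limma adjusted p = 0.0493). The calls of Kdr and Wt1 ended without any 1 of the other 5 arrays (adjusted p of 0.0555 to 0.187). Germ cell markers, 9 tested, held 4 that rose, where 1.78% of all genes rose. Sycp3 stayed called with each array left out, whereas Dazl, Uchl1 and Stra8 lost the call without jsd 1, jsd 2 or SCARKO-jsd 3, and Dazl and Stra8 also without jsd 3 (adjusted p up to 0.163). The summed signal of the 9 on a linear scale was 7911 to 9471 in SCARKO-jsd testes and 6081 to 7121 in jsd testes; its part in the results below was not tested.

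No tested member passed the test. By limma with Benjamini-Hochberg adjustment over all genes, 0 of the 28 tested members differed at an adjusted p under 0.05, where 3.57% of all genes did, 1.78% being higher and 1.8% being lower. At an unadjusted p under 0.05 there were 2 members (7.14%), both lower in SCARKO-jsd testes, against 18.0% of all genes. The median log2 difference was -0.01 over the members and 0.04 over all genes tested, 15 members lay below 0 (53.6%, against 40.2% of all genes) and 13 above, and the largest single difference was 1.29-fold. In whole-testis RNA, fewer cells of a type and less RNA per cell cannot be told apart.

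How large a change these arrays leave room for is given by the interval of each difference. The 95% interval was taken on the brightest probe set of each gene and was not adjusted for the number of genes. It lay within a 2-fold change either way for all 28 tested members, as for 94.2% of all genes. It lay within 1.5-fold for 25 of the 28 (89.3%), as for 77.2% of all genes, and the 3 with wider intervals were Folr2, Cx3cr1 and C1qa. Another bright probe set of Maf, at -0.47 ± 0.35 (SE), leaves room for a larger decrease. For 3 members (10.7%) SCARKO-jsd and jsd arrays were fully separate, against 24.6% of all genes. Laptm5 was the 1 member (3.57%) higher on each SCARKO-jsd array, against 15.1% of all genes, and Fcer1g and Lcp1 (7.14%) were lower on each, against 9.49%.

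**Figure D1:**
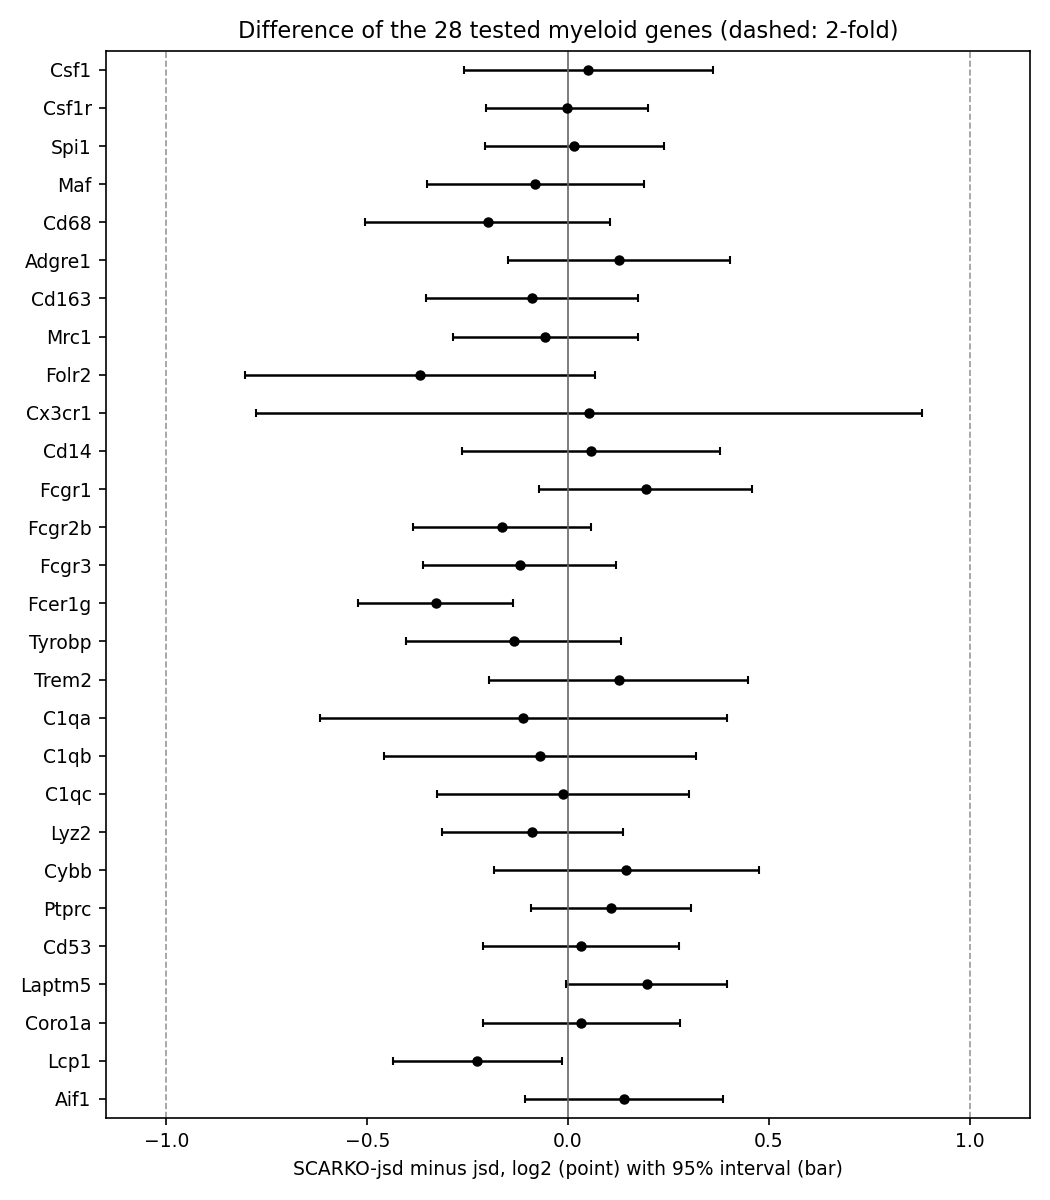
Log2 difference, SCARKO-jsd minus jsd, of the 28 tested myeloid genes (points) with 95% intervals from limma (bars, 3 arrays per group). All intervals, of the brightest probe sets, lie within a 2-fold change (dashed lines). Those of Fcer1g and Lcp1 leave out 0 before adjustment for multiple tests.

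At the head of the pathway, the growth factor, its receptor and the transcription factors differed little between the groups. Csf1r, the receptor that macrophages need to survive, had log2 expression of 11.93, 11.85 and 12.02 on SCARKO-jsd arrays 1, 2 and 3, and of 11.92, 11.98 and 11.91 on jsd arrays 1, 2 and 3. The groups overlapped, with means of 11.93 ± 0.09 in SCARKO-jsd testes and 11.94 ± 0.04 in jsd testes (SD, n = 3 each). The log2 difference of Csf1r was -0.002, with a 95% interval of -0.20 to 0.20, and was 0.04 without SCARKO-jsd 2. Its other bright probe sets gave 0.02 and 0.03.

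Csf1, which encodes the ligand, read 9.44, 9.66 and 9.36 in SCARKO-jsd testes, against 9.37, 9.67 and 9.27 in jsd testes. Replicate 2 was highest in both groups, and the difference of 0.05 ± 0.13 (SE) was smaller than the spread within either. It was -0.04 without SCARKO-jsd 2, and the other bright probe sets of Csf1 gave 0.08, -0.06 and 0.25. Spi1, which encodes PU.1, read 7.42, 7.38 and 7.43 in SCARKO-jsd testes, against 7.35, 7.29 and 7.54 in jsd testes. The groups overlapped here too. The difference of Spi1 was 0.02, with a 95% interval of -0.21 to 0.24, and was 0.03 without SCARKO-jsd 2. Maf, a transcription factor of mature macrophages, differed by -0.08 ± 0.12 on its brightest probe set, and by 0.02 without SCARKO-jsd 2. The other bright probe sets of Maf disagreed, from -0.47 to 0.09, and the lowest of them read 8.13 on SCARKO-jsd 2, against 8.84 to 9.65 on the other 5 arrays.

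Among surface markers of macrophages and monocytes, 7 were tested, 4 lay below 0 and 3 above, and none passed (adjusted p of at least 0.359). Mrc1, the mannose receptor, read 10.47, 10.39 and 10.54 in SCARKO-jsd testes, against 10.54, 10.65 and 10.38 in jsd testes. Adgre1, which encodes the F4/80 antigen used to stain mouse macrophages, read 8.34, 8.61 and 8.40 in SCARKO-jsd testes, against 8.41, 8.42 and 8.13 in jsd testes. Both overlapped between the groups, with differences of -0.06 ± 0.10 for Mrc1 and 0.13 ± 0.12 for Adgre1 (SE). Without SCARKO-jsd 2 these were -0.02 for Mrc1 and 0.05 for Adgre1. Cd68, a lysosomal membrane protein of macrophages, differed by -0.20 ± 0.13, and Cd163, the receptor that takes up haemoglobin with haptoglobin, by -0.09 ± 0.11. Without SCARKO-jsd 2 they differed by -0.12 for Cd68 and 0.02 for Cd163. Cd14, the co-receptor for bacterial lipopolysaccharide, lay between 7.93 and 7.94 on the jsd arrays and between 7.68 and 8.17 on the SCARKO-jsd arrays, which lay on both sides of them, and its difference was 0.06 with all arrays and -0.007 without SCARKO-jsd 2.

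Folr2, a folate receptor of tissue-resident macrophages, had the largest difference of any tested member, -0.37 ± 0.19 (SE), without passing the test (adjusted p = 0.359). It read 8.89, 8.98 and 9.57 in SCARKO-jsd testes, against 9.31, 9.62 and 9.61 in jsd testes. SCARKO-jsd 1 and 2 were below every jsd array and SCARKO-jsd 3 was among them. Over the arrays left out in turn, the difference ran from -0.58 without SCARKO-jsd 3 to -0.24 without SCARKO-jsd 1.

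Cx3cr1, the receptor of fractalkine, varied most among the members, over 1.46 log2 units. It read 9.84, 8.38 and 9.49 in SCARKO-jsd testes, against 8.89, 9.54 and 9.12 in jsd testes. SCARKO-jsd 1 was the highest array and SCARKO-jsd 2 the lowest, so the group means, 9.24 ± 0.76 and 9.18 ± 0.33 (SD, n = 3 each), were close while the arrays were not. The other probe set of the gene, which is dim, had its lowest value on SCARKO-jsd 2 as well, 5.39 against 6.09 to 7.39 on the other 5. The difference of Cx3cr1 was 0.05 ± 0.36 (SE) over 6 arrays and 0.48 ± 0.19 without SCARKO-jsd 2 (limma, adjusted p = 0.190).

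**Figure D2:**
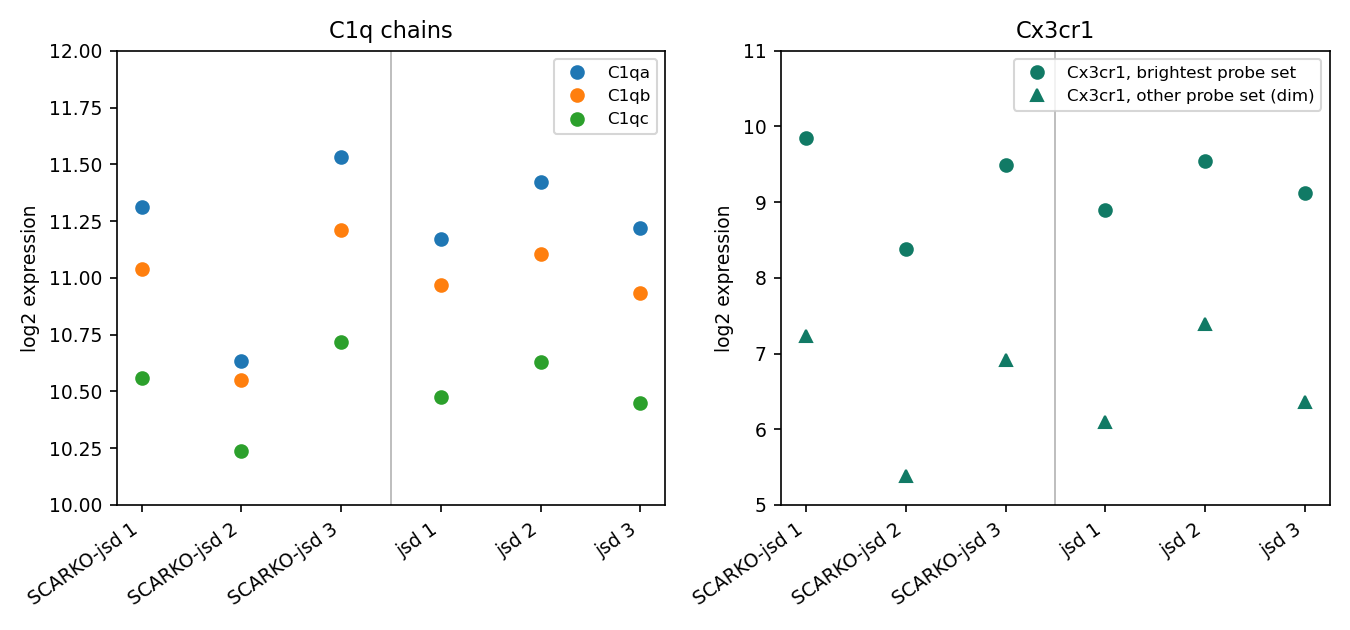
Log2 expression of the C1q chain genes (left) and of both probe sets of Cx3cr1 (right) on each of the 6 arrays, SCARKO-jsd to the left of the grey line and jsd to the right. All 5 probe sets are lowest on SCARKO-jsd 2, where Cx3cr1 read 8.38 and C1qa 10.63.

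Fc receptors and their adaptors held the member nearest to the threshold. Fcer1g, the common gamma chain through which activating Fc receptors signal, read 9.30, 9.29 and 9.41 in SCARKO-jsd testes, against 9.66, 9.63 and 9.70 in jsd testes. Each SCARKO-jsd array was below each jsd array. The SCARKO-jsd level was 0.796 times the jsd level (95% interval 0.696 to 0.909), a log2 difference of -0.33 ± 0.08 (SE). In limma it missed the threshold (adjusted p = 0.0814). The adjusted p lay between 0.0597 and 0.297 over 15 alternative settings, in each of which the difference was negative, and was 0.0761 without SCARKO-jsd 2.

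None of the 3 Fc receptors for IgG among the members passed the test. Fcgr3, a low-affinity activating receptor that signals through this chain, differed by -0.12 ± 0.10 (-0.04 without SCARKO-jsd 2), and Fcgr2b, its inhibitory relative, which does not need the chain, by -0.16 ± 0.10 (SE). Fcgr1, the high-affinity IgG receptor, lay on the other side at 0.19 ± 0.11, reading 7.91, 7.76 and 8.15 in SCARKO-jsd testes and 7.73, 7.77 and 7.74 in jsd testes, so that the groups overlapped through SCARKO-jsd 2. Its other bright probe set gave -0.02. The 4 bright probe sets of Fcgr2b gave -0.16 to -0.28, and since these receptors are close in sequence, signal may be shared between them.

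Tyrobp, the adaptor also called DAP12, read 10.45, 10.12 and 10.47 in SCARKO-jsd testes, against 10.42, 10.48 and 10.54 in jsd testes, and SCARKO-jsd 2 was the lowest array. Its difference was -0.14 ± 0.12 over 6 arrays and -0.02 without SCARKO-jsd 2. Trem2, a lipid-sensing receptor that signals through Tyrobp, differed by 0.13 ± 0.14 (SE), and by 0.24 without SCARKO-jsd 2. Clec7a (dectin-1, a receptor for fungal beta-glucan) was dim, at 5.42 to 6.15 in SCARKO-jsd testes and 5.74 to 6.38 in jsd testes.

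None of the 3 complement C1q chains passed the test, and for each the groups overlapped. C1qa, C1qb and C1qc encode the chains of C1q, which starts the classical complement pathway and is made largely by macrophages, and they are next to each other on chromosome 4. C1qa read 11.31, 10.63 and 11.53 in SCARKO-jsd testes, against 11.17, 11.42 and 11.22 in jsd testes. C1qb read 11.04, 10.55 and 11.21 in SCARKO-jsd testes, against 10.97, 11.11 and 10.93 in jsd testes. On the brightest probe set of each chain SCARKO-jsd 3 was the highest array and SCARKO-jsd 2 the lowest.

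Over 6 arrays the 3 chains differed by -0.11 ± 0.22, -0.07 ± 0.17 and -0.01 ± 0.13 (SE) for C1qa, C1qb and C1qc. Without SCARKO-jsd 2 the sign turned for each, to 0.15, 0.12 and 0.12 (limma, adjusted p = 0.502, 0.544 and 0.541). The other bright probe sets of C1qb gave 0.18 and 0.14, against -0.07 on the brightest. On both of those jsd 1, not SCARKO-jsd 2, was the lowest array. The core shown above also matched C1qc, farther from the start than the printed stretch would reach, at position -193 counted from the annotated start, against -30 in C1qb.

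Of the remaining effectors, Lyz2, the lysozyme of macrophages, differed by -0.09 ± 0.10 (-0.02 without SCARKO-jsd 2) and Cybb, the membrane subunit of the phagocyte oxidase, by 0.15 ± 0.14 (SE). The other bright probe sets of Cybb gave -0.10 and 0.19. Lyz2 has a near-identical neighbour, Lyz1, so the source of its signal is uncertain. The scavenger receptors were both dim, with Msr1 at a mean of 6.55 in SCARKO-jsd testes and 6.67 in jsd testes, and Marco at 4.48 in SCARKO-jsd testes and 4.63 in jsd testes. Itgam, the CD11b integrin chain, was dim as well, at 4.73 ± 0.21 in SCARKO-jsd testes and 4.99 ± 0.39 in jsd testes (SD, n = 3 each). Tested with no filter on dim genes, none of the 4 dim members passed (limma, adjusted p of at least 0.542).

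Genes shared by all leukocytes went both ways. Ptprc, the CD45 phosphatase that marks every leukocyte, read 8.01, 8.11 and 8.17 in SCARKO-jsd testes, against 7.99, 8.03 and 7.95 in jsd testes, a difference of 0.11 ± 0.09 (SE). SCARKO-jsd 1 lay within the jsd arrays and the others just above them. Laptm5, a lysosomal protein of blood cells, read 9.68, 9.63 and 9.80 in SCARKO-jsd testes, against 9.46, 9.54 and 9.52 in jsd testes, and its groups did not overlap. Its difference was 0.20 ± 0.09 (adjusted p = 0.290), but the other bright probe sets gave 0.08, 0.01 and -0.25, so the probe sets of Laptm5 disagreed in sign.

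Lcp1, the actin-bundling L-plastin of leukocytes, read 8.99, 8.86 and 8.97 in SCARKO-jsd testes, against 9.09, 9.15 and 9.26 in jsd testes, each SCARKO-jsd array below each jsd array. The difference was -0.23 ± 0.09 (SE, adjusted p = 0.244), and the other bright probe set gave -0.38. Coro1a, another actin regulator of leukocytes, differed by 0.03 ± 0.11, Cd53, a tetraspanin, by 0.03 ± 0.11, and Aif1, the IBA1 protein used to stain macrophages, by 0.14 ± 0.11. Without SCARKO-jsd 2 these were 0.06 for Coro1a, -0.03 for Cd53 and 0.23 for Aif1. None of these passed the test.

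**Figure D3:**
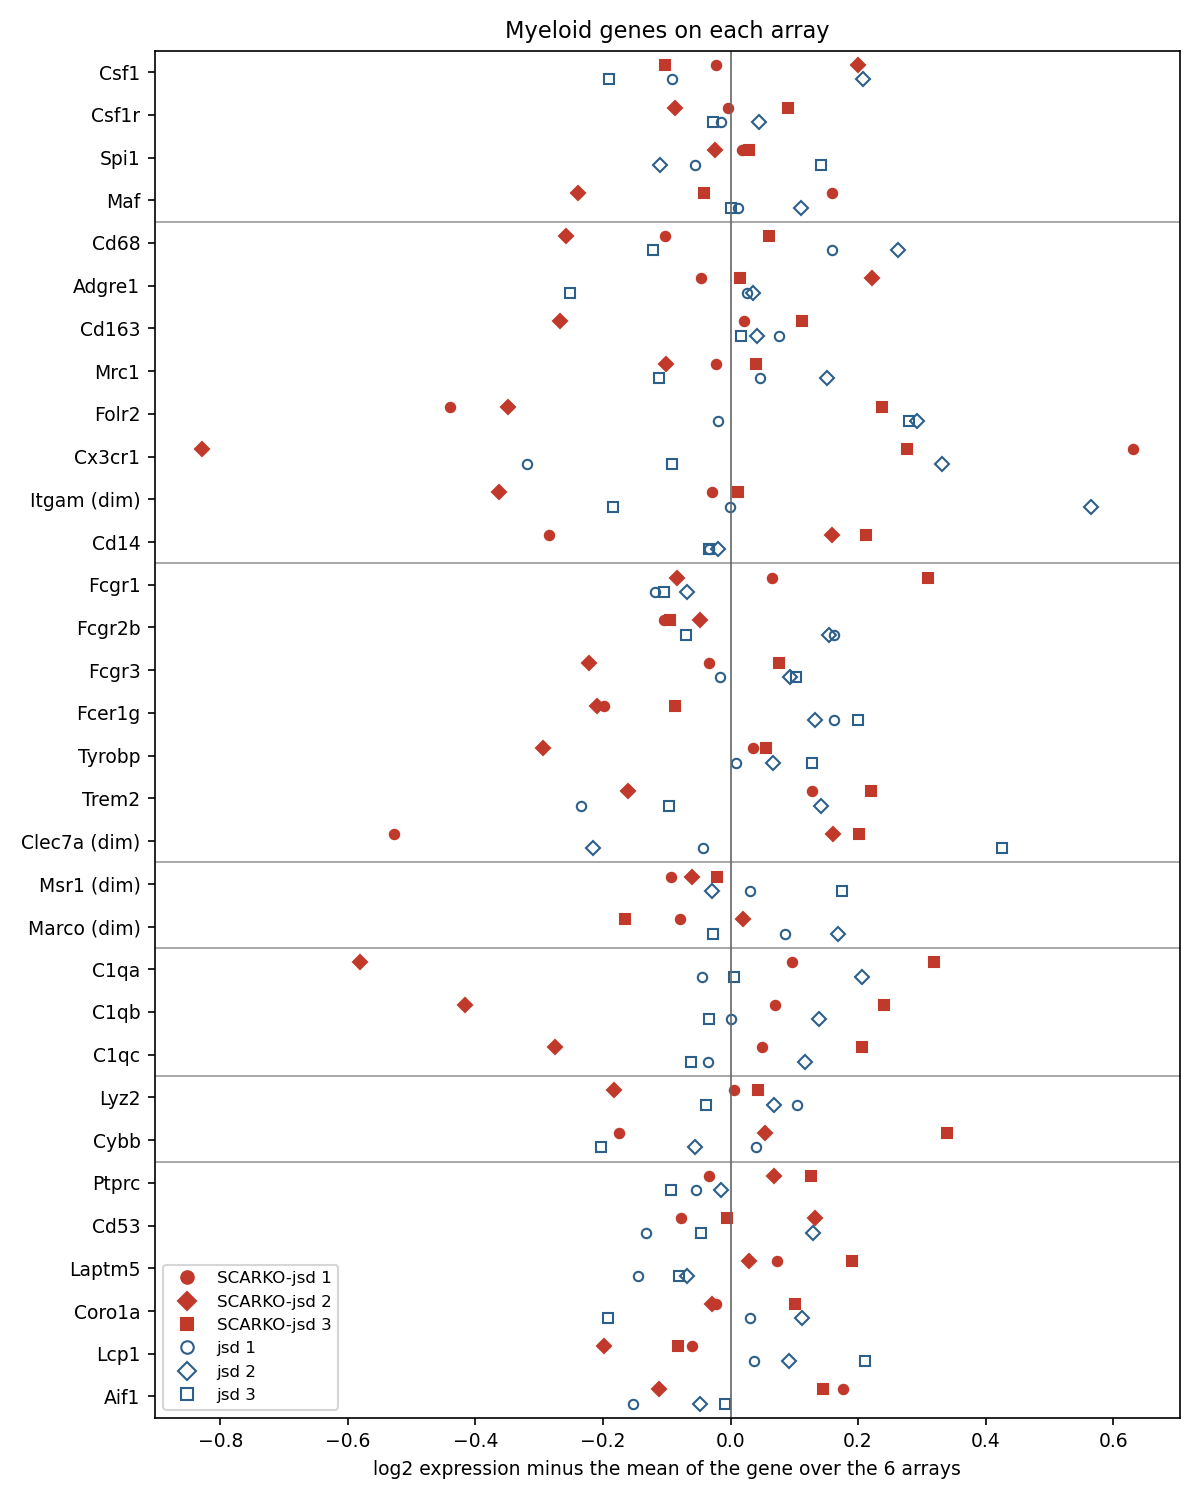
Log2 expression of the 32 measured myeloid genes on each array, minus the mean of the gene over the 6 arrays, with SCARKO-jsd (filled) above jsd (open) in each row and grey lines between roles. Fcer1g, Lcp1 and Laptm5 are the tested genes whose groups do not overlap, and Cx3cr1 has the widest spread, 1.46 log2 units.

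The median SD of the members was 0.16 among SCARKO-jsd arrays and 0.09 among jsd arrays, against 0.15 and 0.10 over all genes. Their median absolute log2 difference between the groups was 0.11, against 0.13 over all genes. SCARKO-jsd 2 was the lowest array for 13 of the 28 tested members (46.4%) and SCARKO-jsd 3 the highest for 11 (39.3%). Over all genes the order was another: SCARKO-jsd 2 was the highest array for 48.7% of genes and the lowest for 11.1%. SCARKO-jsd 3 was the highest for 10.8% of all genes. The median member on SCARKO-jsd 2 lay 0.14 log2 units below its own mean (-0.14), where the median over all genes lay at 0.12. The mean log2 expression over the 28 members was 9.33, 9.19 and 9.44 on SCARKO-jsd arrays 1, 2 and 3, against 9.31, 9.43 and 9.31 on jsd arrays 1, 2 and 3, and the groups overlapped. The part of RNA quality on SCARKO-jsd 2 in this pattern was not tested.

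Without SCARKO-jsd 2 the members still held 0 calls, where 7.04% of all genes were called. At an unadjusted p under 0.05 there were then 5 members (17.9%), against 21.6% of all genes. Fcer1g was lower among these, and Cx3cr1, Fcgr1, Laptm5 and Aif1 were higher. The median over the members was 0.03 and that over all genes 0.003. Of the 28, 12 then lay below 0 (42.9%), against 49.2% of all genes, so that the lean below 0 relative to all genes turned round. On the brightest probe sets, the 95% interval of all 28 again lay within 2-fold.

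**Figure D4:**
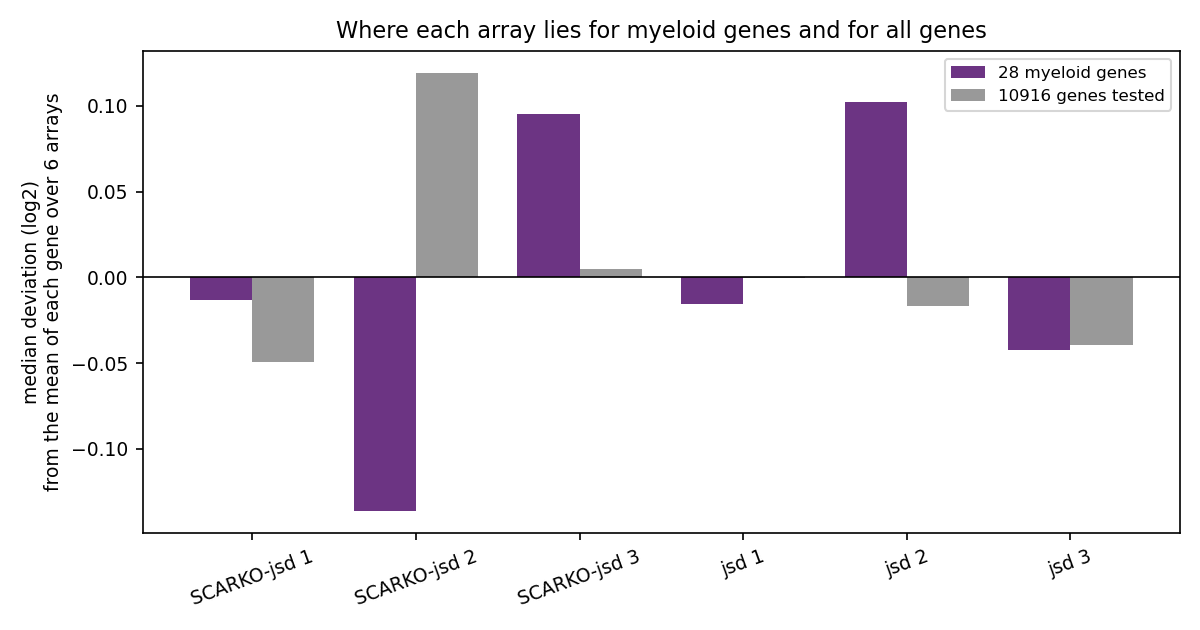
Median, over the 28 tested myeloid genes (purple) and over all 10916 genes tested (grey), of the log2 deviation of each array from the mean of the gene over the 6 arrays. SCARKO-jsd 2 is at -0.14 for the myeloid genes and at 0.12 for all genes.

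Genes that act with the members were read from the same fit. Among 15 tested genes of phagocytosis and lipid handling, Itgb5, an integrin chain that helps cells take up dying neighbours and is not specific to macrophages, rose and 14 did not pass. Itgb5 read 10.54, 10.69 and 10.51 in SCARKO-jsd testes, against 9.74, 9.71 and 9.91 in jsd testes, a log2 difference of 0.79 ± 0.10 (SE, limma adjusted p = 0.00722), and its other 3 probe sets gave 0.82 to 0.94. Every SCARKO-jsd array was above every jsd array. The call of Itgb5 ended without jsd 1 (adjusted p = 0.0549). The kinase receptor gene Tyro3, the engulfment adaptor gene Elmo1 and the fatty acid receptor gene Cd36 differed by -0.38, -0.43 and 0.35, outside the threshold, though Elmo1 passed without SCARKO-jsd 2 (-0.57, adjusted p = 0.0104).

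Among 9 tested genes of toll-like receptors and inflammation, Ly86 rose and 8 did not pass. Ly86 encodes MD-1, the partner of the CD180 receptor on antigen-presenting cells. It read 9.47, 9.50 and 9.49 in SCARKO-jsd testes, against 9.14, 9.06 and 9.12 in jsd testes, and the groups did not overlap. The difference was 0.38 ± 0.08 (SE, limma adjusted p = 0.0448). Leaving out SCARKO-jsd 2 kept the call, whereas leaving out any of the other 5 arrays ended it (0.0716 to 0.205), as did testing with no filter on dim genes (0.0593). Tlr4, the lipopolysaccharide receptor, was higher by 0.45 (limma, adjusted p = 0.0844). Its mean over the 6 arrays, 6.65, was just above the limit for dim genes (6.64), so Tlr4 was tested only through its SCARKO-jsd level. Its other probe sets, all dim, gave 0.71, 0.11 and -0.02. Another 13 genes of this list, with Il1b, Tnf and Nos2 among them, were dim. SCARKO-jsd 2 was the highest array for 7 of the 9 tested (77.8%), against 48.7% of all genes.

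Of the monocyte and neutrophil list, 4 genes were tested, 1 rose and 3 did not pass. SCARKO-jsd 2 was the highest array for 3 of the 4 (75%), against 48.7% of all genes. The gene that rose was Camp, the antimicrobial peptide cathelicidin, which read 7.60, 7.71 and 7.50 in SCARKO-jsd testes, against 6.02, 6.03 and 6.92 in jsd testes. Its difference was 1.28 ± 0.23 (SE, limma adjusted p = 0.0293), with jsd 1 and jsd 2 under the limit for dim genes (6.64), so its size is uncertain. The jsd mean was under that limit too, so Camp was tested only through its SCARKO-jsd level. Over all probe sets annotated to 1 gene, with no filter, its adjusted p was 0.0893 (limma). The jsd arrays stood below every SCARKO-jsd array. Other granule and neutrophil genes, S100a8, S100a9, Mpo, Elane, Ltf and Ngp, were dim in both groups. The call of Camp held without jsd 3 or SCARKO-jsd 2 and ended without any other array (adjusted p up to 0.136). Ccr2, the chemokine receptor of monocytes, differed by 0.01 ± 0.09.

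No gene passed by limma among 11 tested partners and transcription factors of the lineage or 11 tested genes of signalling downstream of Fc receptors, which held 2 genes each at an unadjusted p under 0.05. Over all genes 3.57% passed and 18.0% had such an unadjusted p. Csf2rb, the common beta chain of cytokine receptors, was higher by 0.44 ± 0.12 and Irf8, a transcription factor of monocytes and dendritic cells, by 0.54 ± 0.23 (SE, adjusted p = 0.114 and 0.278). Irf8 overlapped between the groups, with jsd 2 at 11.01 above SCARKO-jsd 1 at 10.83, and its other bright probe set gave 0.29 ± 0.27. Nr1h3, which encodes the sterol sensor LXR alpha, was higher by 0.20 and Cebpb, a factor of myeloid differentiation, by 0.30. Of the 11 partners and transcription factors, 8 lay above 0 and 3 below (27.3%, against 40.2% of all genes), from -0.92 to 0.54. SCARKO-jsd 2 was the highest array for 6 of the 11 partners and transcription factors (54.5%), against 48.7% of all genes. Its part in these differences was not tested. Sirpa, the receptor for the CD47 signal against engulfment, was higher by 0.39 on its brightest probe set and at -0.05 and -0.03 on the others, and the kinase gene Syk, which binds ITAMs, differed by -0.15 ± 0.11. Fyn, a kinase of many cell types, differed by -0.39 and Plcg2, a phospholipase, by 0.23, both outside the threshold (adjusted p = 0.187 and 0.391).

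**Figure D5:**
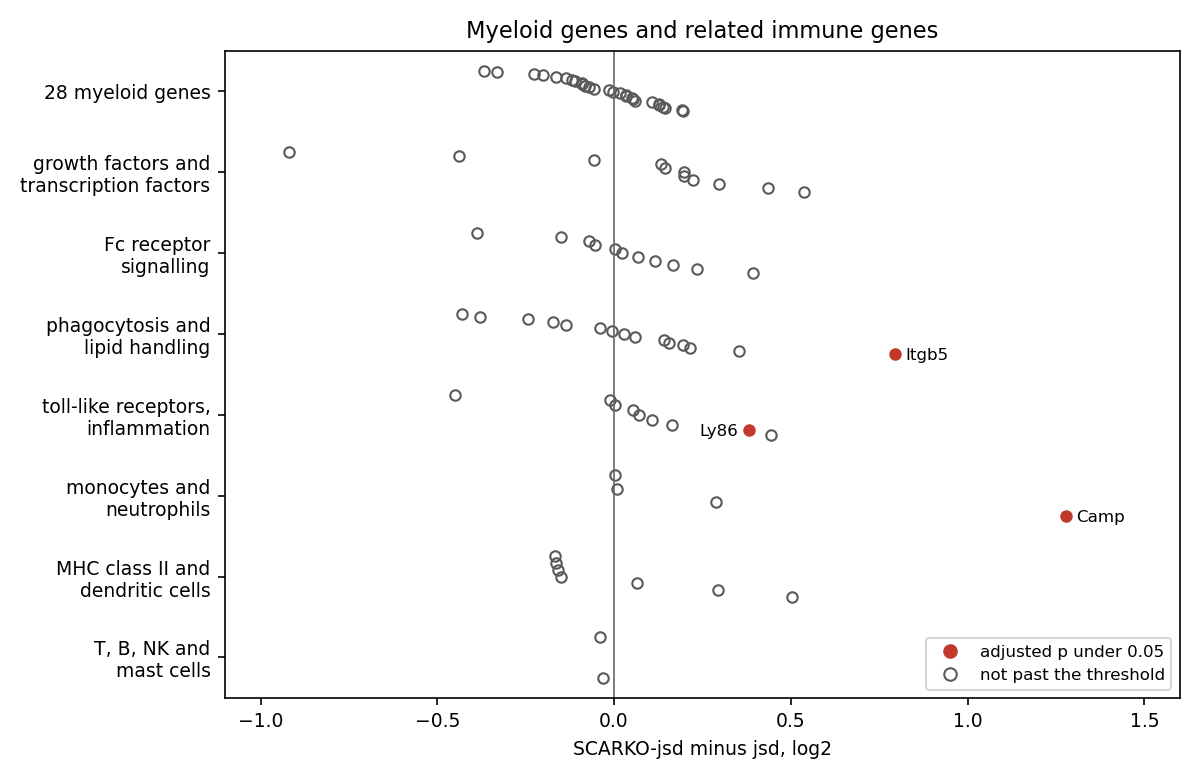
Log2 difference, SCARKO-jsd minus jsd, of each tested gene in the myeloid set and in related immune gene lists (rows). Filled red points passed the test (Itgb5, Ly86 and Camp) and open points did not. No point of the top row is filled, and Camp was tested only through its SCARKO-jsd level.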

How the data were processed

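Total RNA of testes, extracted with RNeasy columns, was hybridised as biotin-labelled cRNA to Affymetrix arrays, per the labels' protocols. Each deposited value is the log2 intensity of a probe set; the submitters' processing notes name RMA and affy, with no version in the sources used here. RMA sets arrays to a shared distribution, so a shift of most transcripts cannot be seen. The deposited values did not share it fully: the median over all probe sets was 6.26 on SCARKO-jsd 2, against 6.40 to 6.41 on the others. The table held 45101 probe sets, and the platform annotation at GEO (some symbols may be outdated) gave 1 symbol to 34958, several to 932 and none to 9211. The brightest probe set of each of 18194 genes was kept, and the 40% with the lowest mean (log2 up to 6.64, called dim) were left out. Genes were tested with limma 3.58.1 (lmFit and eBayes) in R 4.3.3, two-sided, with genotype as the only term and Benjamini-Hochberg adjustment over all 10916 genes. The fit was tested on simulated data. The labels do not say which mouse gave which RNA, so p-values measure the spread between arrays. Replicate numbers were not taken as pairs: correlations of same-numbered arrays' deviations were -0.21, 0.23 and 0.24. The members and lists were chosen with earlier results of these data known. Genes named are all members and, per other list, those called and otherwise up to 4 with the smallest p. The gene knocked out in Sertoli cells is not reported here. Figures used matplotlib 3.10.9. The number of arrays limits the precision.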

Additional observations from a re-analysis of the deposited data

How the results depend on the processing

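In each of the 15 alternatives run, 0 members were called, and the median over the members ran from -0.077 without SCARKO-jsd 3 to 0.036 with median centring. The count over all genes was 390, and was 246 with every probe set by itself and 860 with arrayWeights; it ran from 78 to 768 with each array left out in turn. With the replicate number as a replicate block it was 397, and no member was called. Of 410 member values under the alternatives, 375 kept their sign and side of the threshold and 35 changed sign, all for members that did not pass. With arrayWeights the changed values were 0.0169 for Csf1r, -0.11 for Csf1, 0.0178 for C1qa, 0.0232 for C1qb, 0.0414 for C1qc, -0.0523 for Cd53 and -0.00207 for Coro1a. With the mean of probe sets they were 0.0172 for Csf1r, 0.0832 for C1qb and -0.0267 for Cx3cr1, and with median centring 0.042 for Csf1r and 0.0307 for C1qc. With each array left out in turn, the log2 difference ran from -0.0468 to 0.0417 for Csf1r, -0.0375 to 0.17 for Csf1, -0.17 to 0.0215 for Cd163, -0.13 to 0.00533 for Mrc1, -0.30 to 0.15 for C1qa, -0.21 to 0.12 for C1qb, -0.12 to 0.12 for C1qc, -0.0338 to 0.22 for Cd14, -0.25 to 0.48 for Cx3cr1, -0.0353 to 0.0912 for Spi1, -0.18 to 0.0178 for Maf, -0.0255 to 0.11 for Cd53 and -0.0545 to 0.10 for Coro1a. Apart from the array left out, the cause was not tested. Low signal limits Itgam, Msr1, Marco and Clec7a, which lay under the limit for dim genes (6.64), Msr1 only just (mean 6.61).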

Other observations

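MHC class II genes, which mark antigen-presenting cells and the peritubular macrophages, varied between arrays. Of 7 tested genes in the MHC class II and dendritic cell list, 0 passed by limma, where 3.57% of all genes did. At an unadjusted p under 0.05 there were 2, against 18.0% of all genes. The median log2 difference of the 7 was -0.15, with 4 below 0 and 3 above. H2-Aa read 9.85, 10.35 and 10.53 in SCARKO-jsd testes, against 10.32, 10.02 and 10.89 in jsd testes. Cd74, the invariant chain, read 9.61, 10.00 and 10.24 in SCARKO-jsd testes, against 10.02, 9.74 and 10.54 in jsd testes. For both genes jsd 3 was the highest array and SCARKO-jsd 1 the lowest, whereas the brightest probe set of each C1q chain was lowest on SCARKO-jsd 2. Over the 7 genes, SCARKO-jsd 1 was the lowest array for 5 (71.4%), against 24.3% of all genes. The array jsd 3 was the highest for 4 (57.1%), against 9.70% of all genes. This order was not particular to the list, since SCARKO-jsd 1 was also the lowest for 77.8% of the toll-like receptor list. Flt3, a receptor of dendritic cell precursors, was higher by 0.50 ± 0.13 (SE, adjusted p = 0.0958) and passed without SCARKO-jsd 2 (0.35, adjusted p = 0.0479). The dendritic cell factor gene Zbtb46 was higher by 0.295, outside the threshold (0.152).

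Of 21 measured genes of T, B, NK and mast cells, 19 were dim. The 2 that were tested, Cd4 and Zap70, differed by -0.03 ± 0.08 and -0.04 ± 0.10 (SE). Cd4 is also carried by some macrophages.

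Il34, the other ligand of Csf1r, was chosen after its values were seen. It was dim, and read 5.87, 6.71 and 5.97 in SCARKO-jsd testes, against 5.26, 4.92 and 5.37 in jsd testes, so that the groups did not overlap. With no filter on dim genes its log2 difference was 0.997 ± 0.22 (SE, limma adjusted p = 0.0713), and its highest array was SCARKO-jsd 2.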
